A study of Mus musculus with 8 samples.

Results

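The p53 pathway and the repair of alkylated DNA were followed through 10 genes: Trp53, Cdkn1a, Mdm2, Ccng1, Trp53inp1, Phlda3, Bbc3, Sesn2, Mgmt and Eda2r. They were chosen by name among the 54715 annotated genes of the deposited tables, and all 10 had a value in each of 8 RNA-seq libraries of mouse colon. Levels are in TPM (transcripts scaled to a fixed library total), which divides by transcript length, so that genes can be compared within a library. All 10 genes had a mean of at least 1 TPM, the limit for entering the tests.

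The mice were BALB/cA, either wild type or DCIR-/-, here called knockout. DCIR is an inhibitory C-type lectin receptor of myeloid cells, encoded by Clec4a2. Each genotype gave 1 library at steady state, 1 on day 12 after induction with DSS (dextran sulfate sodium, an agent that damages colon epithelium), and 2 on day 112 of a course that joins azoxymethane (AOM, a carcinogen) with DSS. The day 112 libraries were labelled non-polyp and polyp. The knockout allele is the only genetic change that the labels give. Age, the cells in which DCIR is lost, and the number of animals behind each library are not stated by the labels, and the design text counts 5 colon samples where 8 are listed.

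The transcription factor p53 is held at a low level by Mdm2, which marks it for degradation, and DNA damage releases it from that control. It then induces genes that stop the cell cycle, such as Cdkn1a, genes that promote apoptosis, such as Bbc3, and Mdm2 itself, which closes a feedback loop. Much of this control acts on the protein, which RNA-seq does not measure. AOM is converted in the body to a methylating agent, and one of the lesions it leaves on guanine is removed by the protein that Mgmt encodes.

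The promoter windows of 3 genes are shown because p53 acts by binding DNA at its targets: Cdkn1a and Ccng1 hold a match to its consensus, and Phlda3 had the largest fitted difference of the 10 genes in polyp. Each is the 250 bases before the RefSeq transcription start in GRCm38.p6, read 5′ to 3′ on the gene's strand, with a match to the p53 consensus in capitals. The Cdkn1a window, upstream of the first of its 2 listed starts, is chr17:29090729-29090978 on the plus strand. The Ccng1 window is chr11:40755287-40755536 on the minus strand, and the Phlda3 window is chr1:135765835-135766084 on the plus strand.
Cdkn1a: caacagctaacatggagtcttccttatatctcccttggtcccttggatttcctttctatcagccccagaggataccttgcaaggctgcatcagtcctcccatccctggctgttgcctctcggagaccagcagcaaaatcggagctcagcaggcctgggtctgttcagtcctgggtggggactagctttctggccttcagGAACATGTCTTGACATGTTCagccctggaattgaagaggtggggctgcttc
Ccng1: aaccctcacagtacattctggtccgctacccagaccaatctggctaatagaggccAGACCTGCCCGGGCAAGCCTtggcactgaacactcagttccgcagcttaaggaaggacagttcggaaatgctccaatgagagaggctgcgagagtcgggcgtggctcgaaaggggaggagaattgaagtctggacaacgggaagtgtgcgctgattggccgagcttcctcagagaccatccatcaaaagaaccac
Phlda3: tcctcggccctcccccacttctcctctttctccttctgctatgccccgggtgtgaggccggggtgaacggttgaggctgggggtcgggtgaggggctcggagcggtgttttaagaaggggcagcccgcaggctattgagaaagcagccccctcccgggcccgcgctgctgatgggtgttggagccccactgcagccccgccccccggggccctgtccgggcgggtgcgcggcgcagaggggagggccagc
The p53 consensus was searched on both strands as a pair of adjacent decamers, 20 bases in all, with the 4 core C and G positions fixed and up to 2 mismatches elsewhere. The Cdkn1a match lies 51 to 32 bases before the first listed start, with 1 mismatch. The Ccng1 match lies 195 to 176 bases before its start, also with 1 mismatch. The window of the second Cdkn1a start, chr17:29093519-29093768, held no match. In wild-type steady state, plus-strand loci that the authors assembled from the reads gave 280 TPM from base 29093769 and 0.113 TPM from base 29090976. In the other libraries with assembled loci, a single plus-strand locus began at 29090976, so the starts were not separated. RefSeq windows were found for 9 of the 10 genes (not Trp53inp1), and these 2 genes held a match, against 0.329% of the 27025 genes with a window. A match is a description of the letters, not of binding, and the reference strain is not BALB/cA.

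Several facts about the libraries bear on every value that follows. The library labelled knockout non-polyp went against its label: it differed at least 2-fold from knockout polyp in 2.87% of 16855 genes, but from wild-type non-polyp in 24.6%, while the genotypes differed that much in 4.66% to 5.92% of genes at the other stages. The library labelled knockout steady state held Clec4a2 at 0.659 TPM, where the other knockout libraries were listed at 0 and wild type was at 2.74 to 4.33 TPM. Xist, the female transcript, reached 63.0 to 104 TPM in the day 112 libraries, in which Y-linked Ddx3y was listed at 0. In the other 4 libraries Ddx3y was at 18.4 to 30.9 TPM, and the highest Xist value was 0.114 TPM. Sex and day 112 therefore cannot be told apart. Over 4 pancreas genes the sum was 35.7 TPM in wild-type non-polyp and at most 0.482 TPM in any other library. All 8 libraries carried colon epithelium markers, at a summed 7406 TPM or more over 9 genes.

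Tissue markers also moved with polyp, as the plot of summed marker levels shows. Over the 9 colon epithelium genes the sum was 12287 to 13096 TPM in the steady-state and DSS libraries, 11176 and 7406 TPM in wild-type and knockout non-polyp, and 7471 and 7975 TPM in wild-type and knockout polyp. For 8 of the 9 both polyps lay below all 4 steady-state and DSS libraries, as they did for 26.7% of all tested genes. Over 7 smooth muscle genes the sum was 5805 to 6958 TPM in the steady-state and DSS libraries, 10356 TPM in wild-type non-polyp, and 743, 751 and 465 TPM in knockout non-polyp, wild-type polyp and knockout polyp. Over 10 proliferation genes it was 197 to 262 TPM in the steady-state and DSS libraries, 291 and 475 TPM in wild-type and knockout non-polyp, and 450 and 644 TPM in wild-type and knockout polyp. Prostate and seminal vesicle genes summed to 4968 to 7714 TPM over 9 genes in the steady-state and DSS libraries and to 396 to 1014 TPM on day 112. On the log2 scale their differences in polyp ran from -11.4 for Pbsn to -1.51 for Spink1, and 3 of the 9 passed the test described below. The genes were thus not lowered alike, and the day 112 sum was not split by gene. Over 8 leukocyte genes the sum was 708 to 1233 TPM before day 112, 591 and 1430 TPM in wild-type and knockout non-polyp, and 1442 and 1317 TPM in the polyps. These genes did not go one way: the neutrophil genes S100a8 and S100a9 differed by 5.06 and 5.46 on the log2 scale in polyp, while the B cell gene Cd79a was at -1.84 and the pan-leukocyte gene Ptprc at -1.27, and of the 8 genes Cd79a alone passed the test described below. In bulk tissue, fewer cells of a type and less RNA per cell cannot be told apart, and the part of these markers in the results was not tested.

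**Figure D1:**
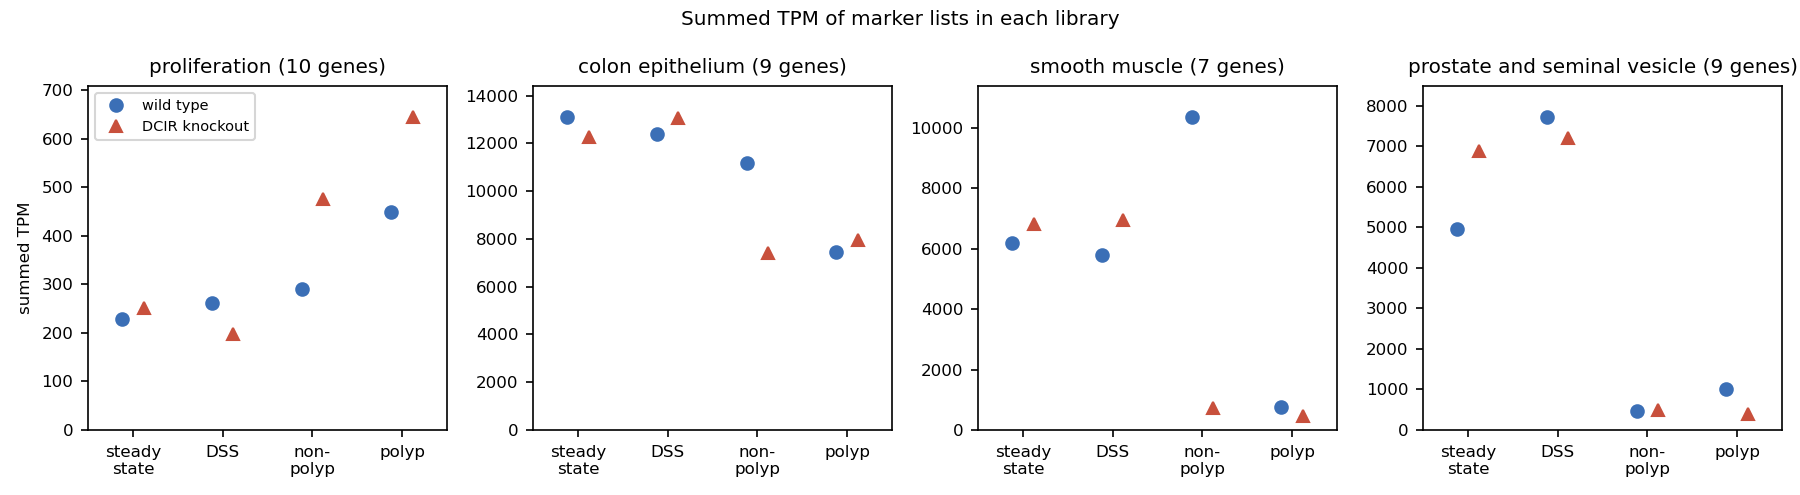
Summed TPM of 4 marker lists in each library, with wild type as circles and knockout as triangles, 1 library per group. Smooth muscle markers are at 465 to 751 TPM in both polyps and in knockout non-polyp, and at 5805 TPM or more elsewhere.

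The comparison the members were read on was polyp against the mean of steady state and DSS, in a limma fit of log2(TPM + 1) on stage and genotype across all 16855 genes with Benjamini-Hochberg adjustment at 0.05. With 1 library per group, the fit takes its error from how far the genotype difference varies between stages, with 3 residual degrees of freedom. In that comparison 645 genes passed (3.83%), 163 of them higher in polyp (0.967%) and 482 lower, a split of 173 and 238 after median-of-ratios rescaling and of 149 and 247 in FPKM. Among the 10 genes 1 passed, Phlda3. Without the library labelled knockout non-polyp 5008 of 16830 genes passed (29.8%), and 4 of the 10, namely Trp53, Phlda3, Bbc3 and Eda2r. Without the library labelled knockout steady state 0.113% of genes passed and 0 of the 10, and without both of these libraries 24.6% and 4 of the 10. Leaving out wild-type non-polyp alone gave 5009 genes and 4 of the 10. The estimates do not change without a non-polyp library, since the non-polyp libraries enter this comparison only through the residual spread. Leaving out either of them removes the stage pair in which the genotypes differed most (at least 2-fold in 24.6% of genes). The lower adjusted p without knockout non-polyp, given for the genes below, comes from that smaller spread and not from a larger difference. The doubt about that library came from these same data.

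Trp53 (ENSMUSG00000059552, chr11:69580359-69591873 in GRCm38), which encodes p53, was at 50.4 TPM (wild type) and 63.0 TPM (knockout) in the steady-state libraries, 52.6 and 46.8 TPM in the DSS pair, 42.5 and 132 TPM in the non-polyp pair, and 109 and 152 TPM in the polyp pair. Both polyps and knockout non-polyp lay above the other 5 libraries with no overlap. The polyp mean was 2.45 times the mean of the steady-state and DSS libraries. It was higher by 1.27 ± 0.35 on the log2 scale (± SE, limma adjusted p = 0.0774), and the adjusted p was 0.00598 without knockout non-polyp. A processed pseudogene, Trp53-ps, held 1.59 to 6.23 TPM, so a small share of reads may be divided between the copies.

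Mdm2 (ENSMUSG00000020184, chr10:117688875-117710758), the ubiquitin ligase that limits p53, stood at 46.1 TPM (wild type) and 52.4 TPM (knockout) in the steady-state libraries, 34.2 and 33.5 TPM in the DSS pair, 37.5 and 59.5 TPM in the non-polyp pair, and 49.5 and 55.2 TPM in the polyp pair. The polyps overlapped the steady-state libraries and lay above the DSS libraries. The log2 difference was 0.35 ± 0.19 (limma adjusted p = 0.241, and 0.104 without knockout non-polyp). Loci that the authors assembled over Mdm2 gave a higher level than the annotated gene in some libraries, such as 73.7 TPM in knockout polyp and 61.2 TPM in wild-type steady state.

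Trp53inp1 (ENSMUSG00000028211, chr4:11156431-11174379), whose product aids p53-dependent apoptosis and autophagy, was at 56.1 TPM (wild type) and 66.0 TPM (knockout) in the steady-state libraries, 36.2 and 47.6 TPM in the DSS pair, 29.5 and 71.1 TPM in the non-polyp pair, and 65.1 and 69.4 TPM in the polyp pair. Polyps overlapped steady state here too, and wild-type non-polyp was lowest. The log2 difference was 0.41 ± 0.26 (limma adjusted p = 0.311, and 0.0704 without knockout non-polyp).

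Cdkn1a (ENSMUSG00000023067, chr17:29090976-29100727) encodes p21, the inhibitor of cyclin-dependent kinases through which p53 arrests the cell cycle, and was the most abundant of the 10 genes in every library. Levels were 278 TPM (wild type) and 267 TPM (knockout) in the steady-state libraries, 308 and 402 TPM in the DSS pair, 206 and 294 TPM in the non-polyp pair, and 348 and 235 TPM in the polyp pair. Knockout DSS was highest and wild-type non-polyp lowest, and the polyps lay on either side of the steady-state values. Its log2 difference was -0.12 ± 0.25 (limma adjusted p = 0.762, and 0.694 without knockout non-polyp). An antisense gene, AC167363.2, overlaps its exons at 1.29 to 5.33 TPM, and the labels do not state whether counting used strand.

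Ccng1 (ENSMUSG00000020326, chr11:40748552-40755311), which encodes cyclin G1 and is a long-known p53 target, varied least, with the highest library at 1.55 times the lowest. It was at 67.6 TPM (wild type) and 64.9 TPM (knockout) in the steady-state libraries, 55.9 and 52.6 TPM in the DSS pair, 65.0 and 52.7 TPM in the non-polyp pair, and 81.7 and 67.0 TPM in the polyp pair. Wild-type polyp was highest, while knockout polyp lay just below wild-type steady state. The log2 difference was 0.30 ± 0.14 (limma adjusted p = 0.200, and 0.133 without knockout non-polyp).

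Phlda3 (ENSMUSG00000041801, chr1:135766119-135769136), a p53 target whose product restrains AKT signalling, was higher in polyp and was the member that passed with all libraries. Levels were 28.6 TPM (wild type) and 31.7 TPM (knockout) in the steady-state libraries, 29.4 and 21.7 TPM in the DSS pair, 35.6 and 77.5 TPM in the non-polyp pair, and 144 and 91.6 TPM in the polyp pair. Both polyps lay above the other 6 libraries, knockout non-polyp came next, and the remaining 5 lay close together. The polyp mean was 4.23 times that of the steady-state and DSS libraries, with a log2 difference of 2.02 ± 0.37 (limma adjusted p = 0.0471, and 0.00247 without knockout non-polyp). Leaving out any 1 of the 6 steady-state, DSS or polyp libraries ended the call, with adjusted p from 0.0680 without wild-type DSS to 0.437 without wild-type polyp, and 0.173 without knockout steady state, while the log2 difference stayed between 1.56 and 2.48.

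Bbc3 (ENSMUSG00000002083, chr7:16308393-16318205) encodes PUMA, a BH3-only protein that triggers apoptosis. It was at 10.7 TPM (wild type) and 14.2 TPM (knockout) in the steady-state libraries, 24.5 and 19.1 TPM in the DSS pair, 14.9 and 27.3 TPM in the non-polyp pair, and 40.2 and 33.4 TPM in the polyp pair. Polyp was highest, knockout non-polyp next, and both DSS libraries lay above both steady-state libraries. The polyp mean was 2.15 times the reference mean and the log2 difference 1.12 ± 0.29 (limma adjusted p = 0.0697, and 0.0148 without knockout non-polyp).

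Eda2r (ENSMUSG00000034457, chrX:97333840-97377216), a receptor of the TNF receptor family that binds ectodysplasin A2, was low and varied most among the 10 genes, with the highest library at 26.8 times the lowest. It was at 2.17 TPM (wild type) and 1.46 TPM (knockout) in the steady-state libraries, 0.766 and 0.286 TPM in the DSS pair, 0.591 and 1.64 TPM in the non-polyp pair, and 7.68 and 2.48 TPM in the polyp pair. Wild-type polyp stood well above the rest, and knockout polyp was only slightly above wild-type steady state. The log2 difference was 1.42 ± 0.44 (limma adjusted p = 0.0904, and 0.0194 without knockout non-polyp). The gene is X-linked, and the polyp libraries differ from the steady-state and DSS libraries in sex. The assembled loci over it gave 4.76 TPM in wild-type polyp, and 3.03 and 4.17 TPM at separate loci in knockout polyp. Only the knockout locus at 4.17 TPM overlaps the wild-type one. Between these overlapping loci wild-type polyp was the higher, by a smaller margin than in the annotated gene. The knockout locus at 3.03 TPM has no assembled wild-type value beside it. Without wild-type polyp the log2 difference was 0.78 (limma adjusted p = 0.554), and without knockout polyp it was 2.07 (limma adjusted p = 0.314).

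Sesn2 (ENSMUSG00000028893, chr4:132492032-132510501), a p53-inducible sestrin gene that links stress to lower mTORC1 signalling, was at 9.17 TPM (wild type) and 10.9 TPM (knockout) in the steady-state libraries, 5.58 and 3.88 TPM in the DSS pair, 6.17 and 13.3 TPM in the non-polyp pair, and 11.8 and 13.7 TPM in the polyp pair. The polyps lay above the steady-state libraries by a small margin and above the DSS libraries by a wide one. The log2 difference was 0.80 ± 0.32 (limma adjusted p = 0.147, and 0.0537 without knockout non-polyp).

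Mgmt (ENSMUSG00000054612, chr7:136894614-137130266), the methyltransferase that repairs alkylated guanine, was at 2.57 TPM (wild type) and 2.40 TPM (knockout) in the steady-state libraries, 2.12 and 2.12 TPM in the DSS pair, 2.91 and 1.18 TPM in the non-polyp pair, and 3.35 and 0.876 TPM in the polyp pair. The steady-state and DSS libraries lay close together. On day 112 wild type was above all 4 of them and knockout below all 4. The log2 difference of polyp was -0.21 ± 0.35 (limma adjusted p = 0.701, and 0.665 without knockout non-polyp). The locus assembled over Mgmt gave 3.20 TPM in knockout non-polyp, against 1.18 TPM for the annotated gene, so the genotype order in non-polyp tissue depends on the locus read.

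**Figure D2:**
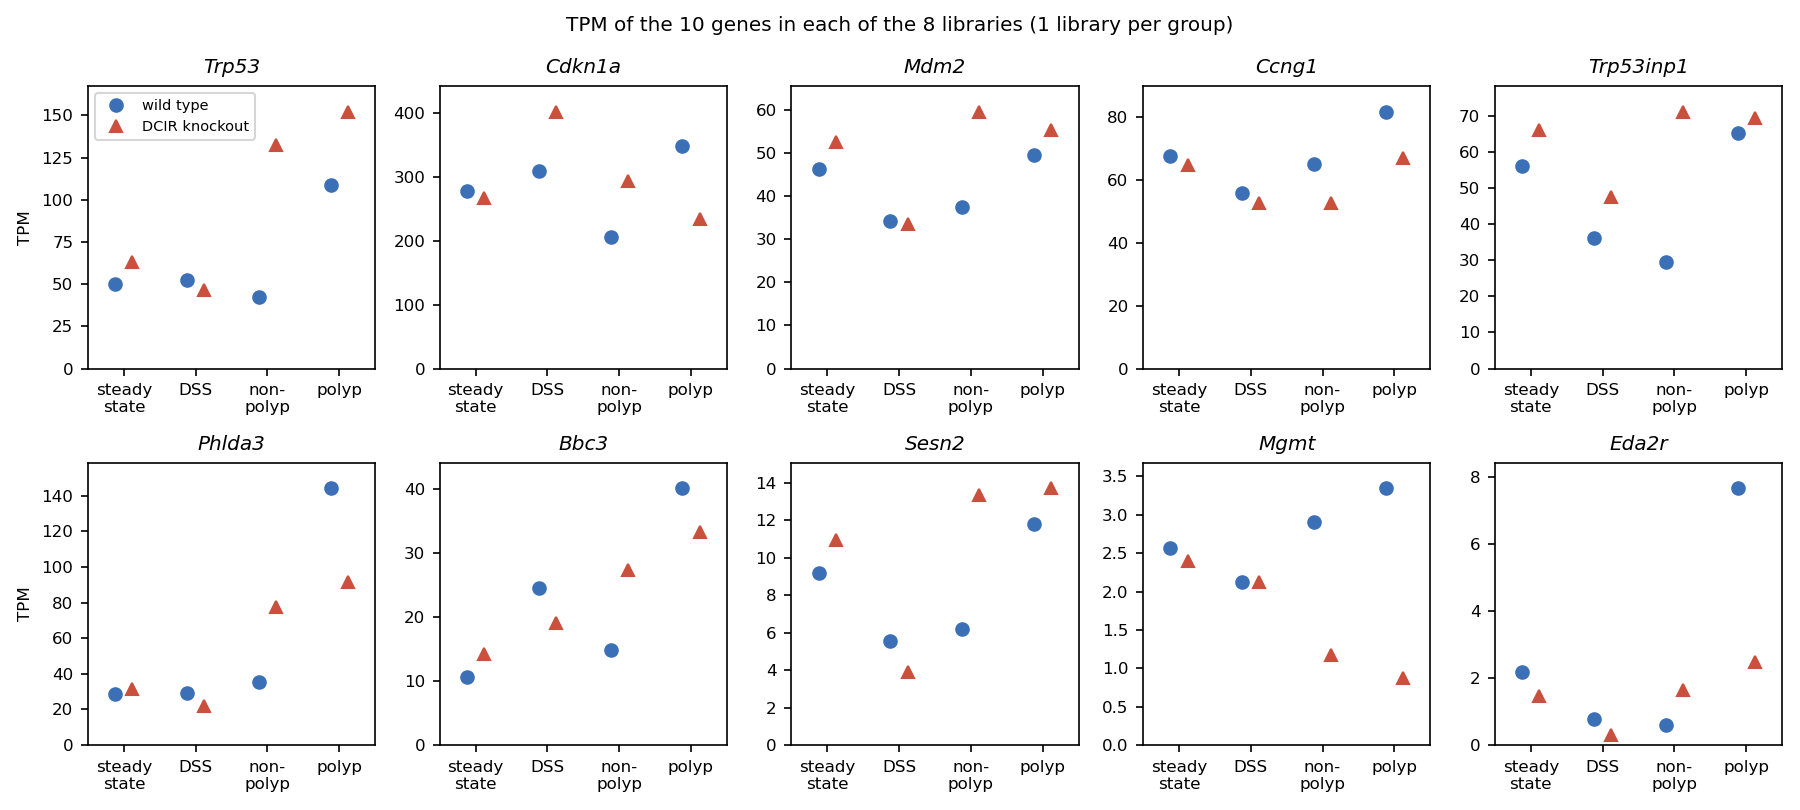
TPM of the 10 genes (vertical axes from 0, scaled per gene) in each library by stage, with wild type as circles and knockout as triangles, 1 library per group. For Trp53 and Phlda3 both polyps and knockout non-polyp lie above the other 5 libraries, whereas for Cdkn1a the polyps, at 348 and 235 TPM, lie on either side of the steady-state values.

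In all, both polyp libraries lay above all 4 steady-state and DSS libraries for 5 of the 10 genes (Trp53, Phlda3, Bbc3, Sesn2 and Eda2r) and below all 4 for none. Over all tested genes the shares were 25.1% above and 26.7% below. By the fitted difference 8 of the 10 genes were higher in polyp, with a median log2 difference of 0.60, beside 49.2% of all genes and a median of -0.01.

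**Figure D3:**
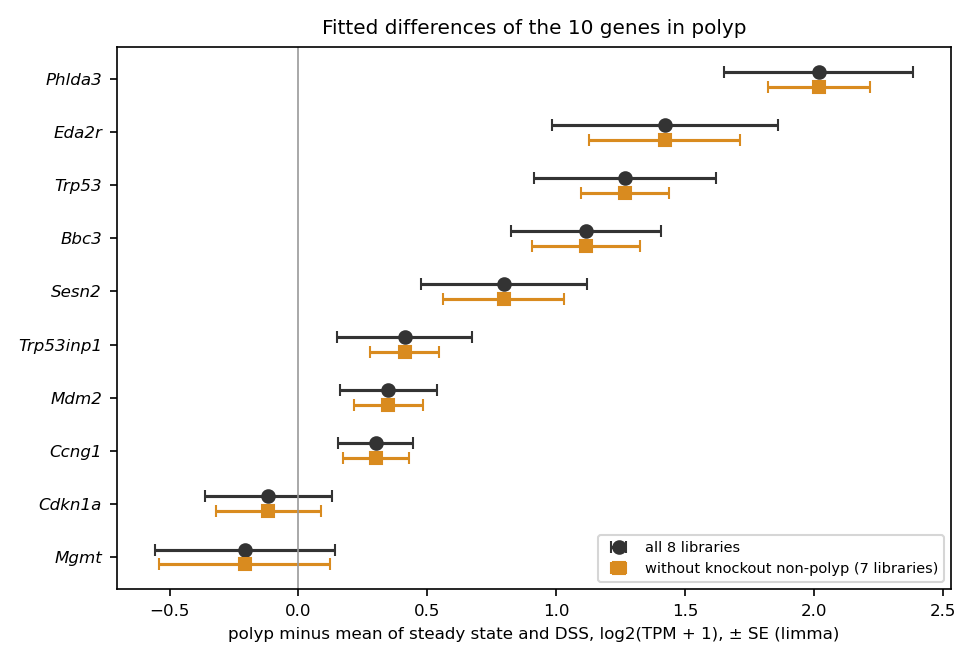
Fitted log2(TPM + 1) difference of polyp from the mean of steady state and DSS for each of the 10 genes, with bars of ± 1 SE from limma, over all 8 libraries (circles) and without knockout non-polyp (squares). The estimates are the same in both fits, and the SE of Trp53 goes from 0.35 to 0.17.

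Against steady state alone, none of the 10 genes passed, where 138 of all genes did (0.819%). The largest differences were Phlda3 at 1.90 ± 0.42 (limma adjusted p = 0.0713), Bbc3 at 1.50 ± 0.34 (limma adjusted p = 0.0718) and Trp53 at 1.18 ± 0.41 (limma adjusted p = 0.126). Without knockout non-polyp these 3 passed, beside 25.6% of all genes. Against DSS alone, whose label names no carcinogen, none passed either (0.297% of all genes did). Phlda3 was at 2.14 ± 0.42, Eda2r at 1.87 ± 0.51, Trp53 at 1.36 ± 0.41 and Sesn2 at 1.28 ± 0.37, with limma adjusted p from 0.0938 to 0.134. Without knockout non-polyp 6 of the 10 passed (Trp53, Mdm2, Trp53inp1, Phlda3, Sesn2 and Eda2r), beside 20.4% of all genes. These comparisons share the polyp libraries.

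Polyp against non-polyp tissue of day 112 compares tissue of mice that had all had the AOM and DSS course and shared the female pattern of Xist and Ddx3y. No gene passed (0%), and 2.94% of genes had an unadjusted p under 0.05. The 10 genes ran from -0.03 for Mgmt to 1.42 ± 0.51 for Eda2r and 1.11 ± 0.42 for Phlda3 (limma adjusted p = 0.858 for both). The pairs gave unequal values. In wild type, polyp was above non-polyp by 1.33 for Trp53, 1.99 for Phlda3, 1.38 for Bbc3 and 2.45 for Eda2r on the log2 scale, and in knockout by 0.20, 0.24, 0.28 and 0.40, with no test of a single pair. Without the library labelled knockout non-polyp, where the lone wild-type library is assumed to vary like the others, 8.97% of genes passed. Among the 10 genes Trp53 (1.47), Trp53inp1 (1.04), Phlda3 (1.82) and Eda2r (2.15) then passed, with limma adjusted p from 0.0252 to 0.0414.

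Other genes of the pathway were read from lists. Of 37 other p53 target genes, 23 were higher and 14 lower in polyp than in the mean of steady state and DSS, with a median log2 difference of 0.29. Over all tested genes 49.2% were higher, with a median of -0.01. With all libraries 1 passed. This was Aen, a nuclease gene linked to apoptosis, at 14.7 TPM (wild type) and 15.2 TPM (knockout) in the steady-state libraries, 13.2 and 10.7 TPM in the DSS pair, 22.4 and 25.2 TPM in the non-polyp pair, and 28.6 and 32.1 TPM in the polyp pair (log2 difference 1.13 ± 0.19, limma adjusted p = 0.0436). Without knockout non-polyp 12 rose and 7 fell, beside 13.4% of all genes higher and 16.3% lower.

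The targets moved both ways in that smaller fit. Those that rose most were Tnfrsf23, a decoy TRAIL receptor gene (2.79), Psrc1 (2.09) and the cytokine gene Gdf15 (1.86), and Bax, the pore-forming death effector, rose by 1.13. Those that fell most were the drug efflux pump gene Abcb1a (-2.41), the iron reductase gene Steap3 (-2.08), Sesn1, the sestrin paralog of Sesn2 (-1.31), and Casp1 (-1.08). Fas, a death receptor gene, fell by 0.73 and Perp, a desmosome gene, fell by 0.41. Bax was at 84.1 TPM (wild type) and 84.4 TPM (knockout) in the steady-state libraries, 108 and 88.8 TPM in the DSS pair, 94.3 and 169 TPM in the non-polyp pair, and 211 and 190 TPM in the polyp pair. Both polyps lay above all 4 steady-state and DSS libraries for 17 of the 37 targets and below for 10. The shares over all tested genes were 25.1% above and 26.7% below.

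**Figure D4:**
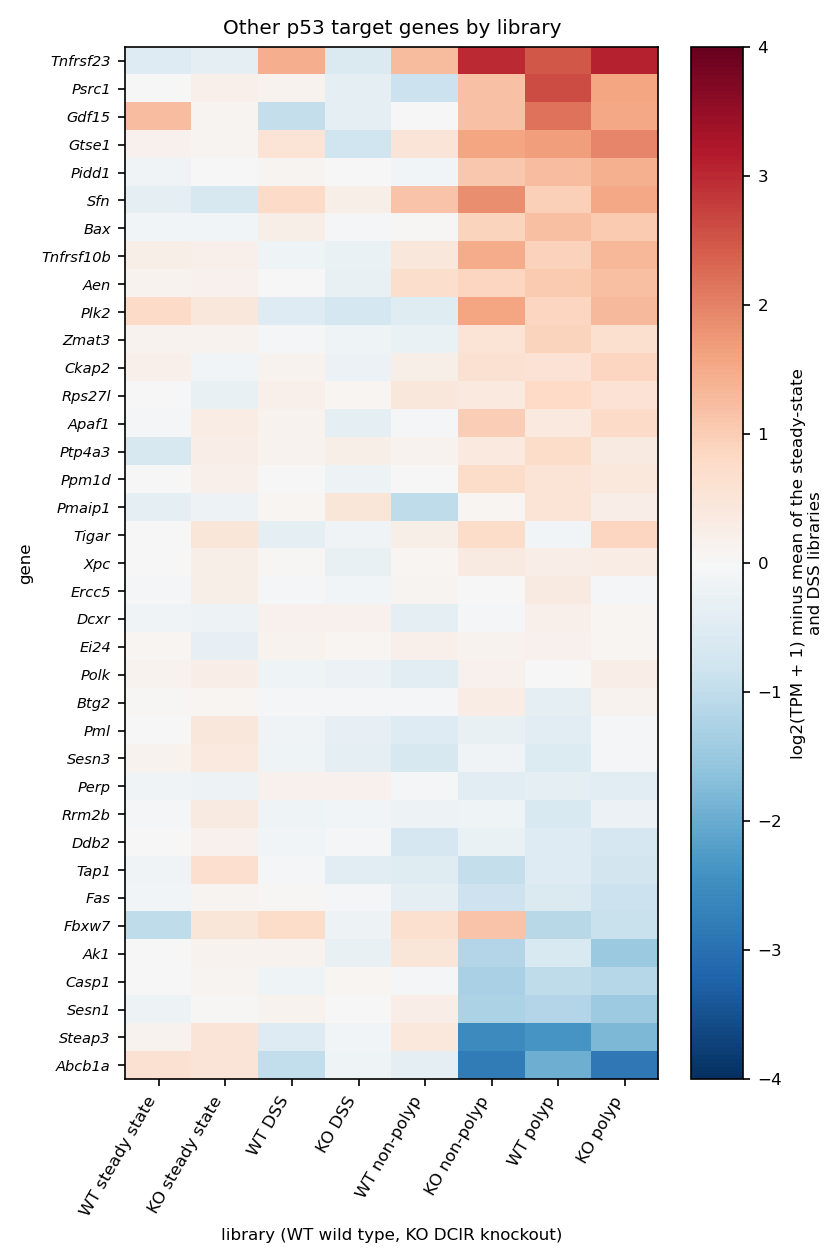
Log2(TPM + 1) of 37 other p53 target genes in each library, minus the gene's mean over the 4 steady-state and DSS libraries (red higher, blue lower), with genes ordered by the polyp mean. The 2 polyp columns and knockout non-polyp share the red genes at the top, led by Tnfrsf23, and the blue genes at the bottom, down to Abcb1a.

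Among 15 measured regulators of p53, 11 were higher and 4 lower, with a median of 0.13, beside 49.2% of all genes higher, and 1 passed. Cdkn2a, whose locus encodes the Mdm2 antagonist ARF and the kinase inhibitor p16, was at 0.0926 TPM (wild type) and 0.188 TPM (knockout) in the steady-state libraries, 0.749 and 0.668 TPM in the DSS pair, 1.51 and 35.8 TPM in the non-polyp pair, and 99.2 and 61.7 TPM in the polyp pair. The polyps and knockout non-polyp stood far above all other libraries. Its log2 difference was 5.83 ± 0.93 (limma adjusted p = 0.0429). All steady-state and DSS values lay under 1 TPM, the limit on the mean for entering the tests. Cdkn2a met that limit through the libraries where it was high, so its call is not independent of that choice. The gene-level value does not separate its transcripts. Mdm4, the Mdm2 paralog that also restrains p53, was lowest by the fitted difference, at -0.35 ± 0.17 (limma adjusted p = 0.192).

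Repair genes were mostly higher in polyp, beside 49.2% of all genes higher, and none passed with all libraries. Of 23 measured genes of alkylation and base excision repair, 16 were higher, with a median of 0.30. The endonuclease gene Apex1 was at 51.4 TPM (wild type) and 57.2 TPM (knockout) in the steady-state libraries, 55.4 and 49.0 TPM in the DSS pair, 54.6 and 121 TPM in the non-polyp pair, and 128 and 152 TPM in the polyp pair. Its log2 difference was 1.38 ± 0.28 (limma adjusted p = 0.0525, and 0.00299 without knockout non-polyp), and that of the flap endonuclease gene Fen1 was 1.11 ± 0.33. At the other end stood the glycosylase genes Mutyh at -0.61 ± 0.29 and Mbd4 at -0.60 ± 0.42. Without knockout non-polyp 5 rose (Apex1, Fen1, Lig1, Parp1 and Polb) of the 23, beside 13.4% of all genes.

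In homologous recombination and the Fanconi pathway 17 of 24 measured genes were higher, with a median of 0.21, led by Fanca at 1.11 ± 0.38. The share of all genes that were higher, for this list and those that follow, was 49.2%. Fancc at -0.79 ± 0.62 and Rad51d at -0.52 ± 0.19 were lowest. Damage sensing and checkpoint genes were higher in 17 of 22 (median 0.24), led by Clspn, which encodes the checkpoint mediator claspin (1.01 ± 0.30), and Timeless (0.91 ± 0.30). Lowest there were the ubiquitin ligase gene Rnf8 (-0.71 ± 0.37) and Nbn (-0.34 ± 0.19). Mismatch repair was higher in 6 of 8 (median 0.24), from Msh3 (-0.29) and Mlh3 (-0.28) to Exo1 and Pms1 (0.89 each). Nucleotide excision repair was higher in 10 of 12 (median 0.13), from Xpa (-0.65) and Uvssa (-0.61) to Cetn2 (0.68) and Ercc1 (0.70). End joining was higher in 6 of 9 (median 0.37), from the nuclease gene Dclre1c (-1.07) and Poll (-0.20) to Polq (0.70) and Xrcc4 (0.88). Without knockout non-polyp 3, 3, 1, 3 and 0 genes rose in these 5 lists in the order given, and 0, 0, 0, 1 and 1 fell, beside 13.4% of all genes higher and 16.3% lower in that fit. All 10 proliferation markers were higher beside them, with a median of 1.09, and the part of proliferation in the repair values was not tested.

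**Figure D5:**
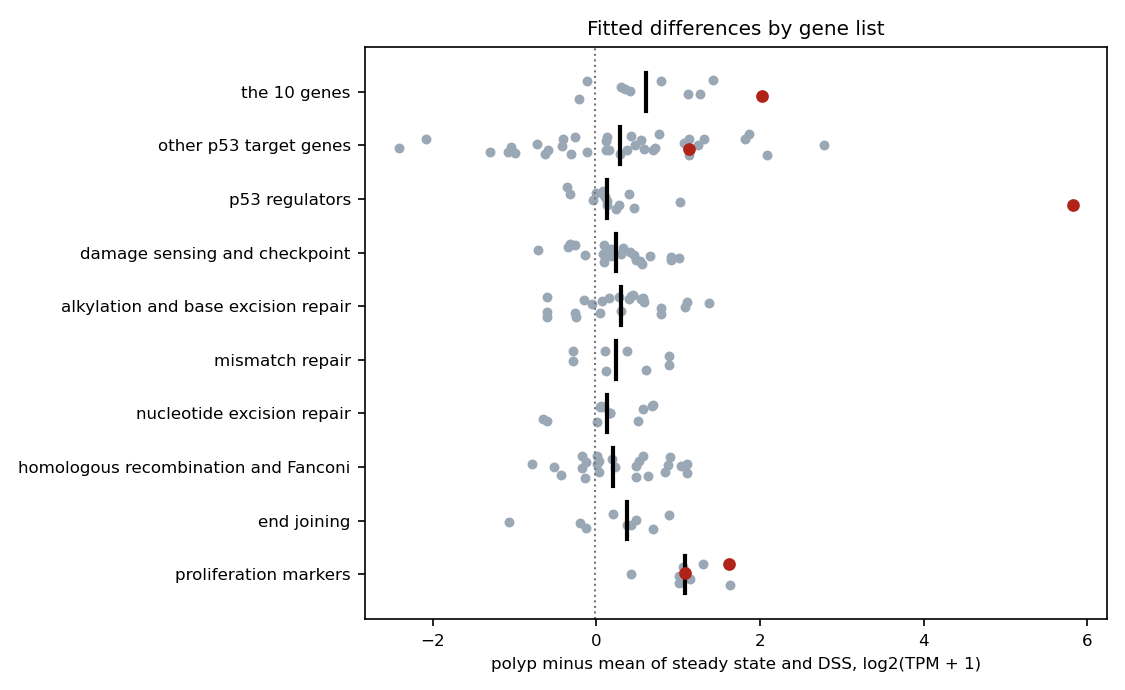
Fitted log2(TPM + 1) difference of polyp from the mean of steady state and DSS for every tested gene of 10 lists, with red points for adjusted p under 0.05 over all genes, black bars for list medians and a dotted line at the median of all genes (-0.01). Cdkn2a stands apart at 5.83 among the p53 regulators, and medians run from 0.13 to 1.09.

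DSS alone was compared with steady state, and no gene passed with limma (0%, with 5.36% of genes at an unadjusted p under 0.05). Of the 10 genes 2 were higher after DSS, beside 35.3% of all genes. Bbc3 was at 0.76 ± 0.34 and Cdkn1a at 0.37 ± 0.28, while Sesn2 was at -0.96 ± 0.37, Eda2r at -0.89 ± 0.51, Trp53inp1 at -0.54 ± 0.30 and Mdm2 at -0.53 ± 0.22 on the log2 scale (limma adjusted p from 0.879 to 0.894). Both DSS libraries lay above both steady-state libraries for Bbc3 and Cdkn1a (13.6% of all genes) and below them for 6 of the 10, namely Mdm2, Ccng1, Trp53inp1, Sesn2, Mgmt and Eda2r (34.7% of all genes). The median of all genes was -0.12 in this comparison, and 0.01 after median-of-ratios rescaling.

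Knockout was compared with wild type across the stages, and no gene passed with limma (0%, with 4.37% at an unadjusted p under 0.05). The largest fitted differences were Trp53 at 0.56 ± 0.29, Mgmt at -0.53 ± 0.29 and Trp53inp1 at 0.49 ± 0.21 (limma adjusted p = 0.705 for each). Trp53inp1 was higher in knockout at all 4 stages. Ccng1 and Mgmt were lower at all 4, with Mgmt at only -0.000333 in the DSS pair. By the fitted difference 64.5% of all genes were higher in knockout, and the share with the same direction at all 4 stages was not counted. For Trp53inp1 the non-polyp pair differed by 1.24 and the other pairs by 0.09 to 0.38, and without the library labelled knockout non-polyp the fitted value was 0.24 ± 0.13. The median of all genes was 0.10, and 0.00 after rescaling, which turned the sign of Cdkn1a (0.07 to -0.05) and Phlda3 (0.04 to -0.07). Most of the Trp53 difference lay in the non-polyp pair, at 1.62, and without that library it was 0.21 ± 0.16. For Mgmt the pair differences were -0.07 for steady state, 0.00 for DSS, -0.84 for non-polyp and -1.21 for polyp, and the fitted value was -0.43 ± 0.31 without that library.

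Genes whose log2(TPM + 1) profile over the 8 libraries was nearest to that of Cdkn1a, Mgmt and Eda2r were named by the root mean square distance after centring. For Cdkn1a these were Otulin (0.13), Bnip3l (0.14) and Dbil5 (0.14), where Cdkn1a itself had an SD of 0.28. For Mgmt they were Gm16124 (0.14), 2810468N07Rik (0.14) and Frs3 (0.18), against an SD of 0.39. For Eda2r, with an SD of 0.80, they were Wwox (0.14), CT030636.1 (0.32) and 1700020N18Rik (0.33). These neighbours of Eda2r reached the limit of 1 TPM on the mean only through their polyp values. For genes this low, a peak in polyp was therefore partly set by the filter. Wwox was at 6.26 TPM in wild-type polyp and at no more than 1.39 TPM elsewhere.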

How the data were processed

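Flash-frozen colon and polyps gave the RNA, and the NEBNext Ultra kit the libraries, per the labels' protocols. The authors quantified genes with StringTie on GRCm38, also named mm10, per the submitters' processing notes. The aligner, the StringTie version and the release of the annotation were not stated there. The deposited tables give coverage (a mean signal per base), FPKM and TPM per gene, per the file headers. In 6 tables the TPM column stacks loci assembled from the reads on the annotated genes. Its total there exceeds that of TPM, so it was recorded as a signal column. The tables without assembled loci were those of wild-type and knockout DSS, so this difference in processing cannot be told apart from the DSS stage. Annotated rows were used, and they summed to 895587 to 940132 TPM per library.

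The ratio of the deposited coverage to FPKM implies a depth of 2.70 to 3.35 gigabases, and 15992 to 17001 genes reached 1 TPM in a library. Read counts were not given, so no counting interval is set. TPM and FPKM should keep 1 ratio within a library (tolerance 0.1%). The 10 genes that did not, and 13 with several rows, were left out. None is a gene described here.

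log2(TPM + 1) was fitted with limma 3.58.1 (R 4.3.3, intensity trend) on stage and genotype for 16855 genes with a mean of at least 1 TPM, checked on simulated data, with Benjamini-Hochberg adjustment at 0.05 over all of them. A difference on this scale understates low genes. Each group holds 1 library, nothing says that libraries come from separate animals, and p-values measure only the spread between these libraries. Single pairs were not tested. Alternatives were other pseudocounts, filters, FPKM, median-of-ratios rescaling, no trend, no genotype term and libraries left out. Leaving out both doubtful knockout libraries together, or the gland genes, was chosen after seeing the data.

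The 10 genes and all lists were chosen with earlier results of these data known. Text names the 10 genes, those of each list that pass (up to 4 per direction) or otherwise the 2 largest differences in each direction, and the 3 nearest profiles. Bax, Fas, Perp, Mdm4 and Wwox levels were named after their values were seen. Promoters are RefSeq's, in GRCm38.p6, the files' build. Nhej1 and Muc2 were not analysed here, and 2 further genes, which the naming rule would have named, are not reported here and were left out of the lists.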

Additional observations from a re-analysis of the deposited data

Results flagged for a closer look

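The polyp difference pointed in opposite directions in wild type and knockout for Cdkn1a and Mgmt in both comparisons below. For Mdm2 and Trp53inp1 it did so only against non-polyp tissue. How many of all tested genes do the same was not counted. Each value is a log2(TPM + 1) difference from 1 library per genotype, and the difference between genotypes was not tested. Against the mean of steady state and DSS, Cdkn1a was at 0.247 in wild type and -0.481 in knockout, and Mgmt at 0.380 and -0.796. Against non-polyp tissue, Cdkn1a was at 0.751 in wild type and -0.323 in knockout, Mdm2 at 0.392 and -0.108, Trp53inp1 at 1.11 and -0.0358, and Mgmt at 0.154 and -0.216. The comparisons with non-polyp tissue rest on the library labelled knockout non-polyp, which lay nearer to the polyps than to wild-type non-polyp. For Mgmt the locus assembled in that library gave 3.20 TPM against 1.18 TPM for the annotated gene.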

How the results depend on the processing

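With 1 library per group, no read counts and low levels of Mgmt and Eda2r, small differences were not detectable. No paired analysis was possible because the labels carry no replicate numbers that pair libraries. Causes of the changes below were not tested, except that fits without a library have fewer residual degrees of freedom.

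For polyp against the mean of steady state and DSS, 645 genes passed, and 33 with no filter on low values, 396 in FPKM, 411 after median-of-ratios rescaling, 272 without the trend, 1369 without the genotype term, 5003 without both non-polyp libraries and 4123 without both doubtful knockout libraries. Leaving out each library gave 4 to 5009. Of the 10 genes 1 passed, and 0 with a pseudocount of 5, no filter, FPKM or no trend, 4 without both non-polyp or both doubtful libraries, and 0 to 4 leaving out each library. Phlda3 then had limma adjusted p of 0.0513, 0.122, 0.0515 and 0.0592 in those 4 settings.

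Against steady state, 138 genes became 72 (pseudocount 5), 15 (no filter), 57 (FPKM), 71 (median-of-ratios), 79 (no trend), 773 (no genotype term), 4310 (no non-polyp) and 2322 (no doubtful libraries), and 0 to 4316 leaving out each library. The 10 genes gave 1 without the genotype term, 3 without both non-polyp or both doubtful libraries, and 0 to 3 leaving out each library. Against DSS, 50 genes became 76 (pseudocount 0.1), 9 (no filter), 32 (FPKM), 137 (no genotype term), 16 (no steady state), 3465 (no non-polyp) and 3478 (no doubtful libraries), and 0 to 3488 leaving out each library. The 10 genes gave 6 and 4 in the last pair of settings and 0 to 6 leaving out each library. Against non-polyp, 0 genes became 1 (pseudocount 5 or no genotype term) and 1681 (no doubtful libraries), with 4 of the 10 genes, and 0 to 1510 genes and 0 to 4 of the 10 leaving out each library. DSS against steady state gave 1 gene without the doubtful libraries. Knockout against wild type gave 1 without both steady-state libraries, 4 without the doubtful ones, and 0 to 1 leaving out each library.

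Directions that turned belong to uncalled values. Mgmt in polyp against non-polyp was 0.00277 with a pseudocount of 5 and 0.00676 in FPKM. In FPKM, after rescaling, without both non-polyp and without both doubtful libraries, knockout minus wild type was -0.0379, -0.0521, -0.0802 and -0.0930 for Cdkn1a, and -0.0575, -0.0727, -0.307 and -0.533 for Phlda3. In the last pair of settings it was -0.0775 and -0.305 for Bbc3, and it was -0.114 for Sesn2 without the doubtful libraries. DSS minus steady state was then 0.0956 for Phlda3 and 0.111 for Mgmt.

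Leaving out each library gave these ranges. Cdkn1a in polyp ran from -0.538 to 0.305 against the mean of steady state and DSS, -0.354 to 0.489 against steady state, -0.723 to 0.121 against DSS and -0.208 to 0.636 against non-polyp. Mgmt ran from -0.662 to 0.246, -0.740 to 0.168, -0.583 to 0.324 and -0.485 to 0.423 in the same order. Against non-polyp, Mdm2 ran from -0.134 to 0.418 and Sesn2 from -0.0635 to 0.935, and against steady state Trp53inp1 from -0.123 to 0.406. DSS minus steady state ran from -0.510 to 0.198 for Mgmt, -0.552 to 0.0645 for Phlda3 and -0.667 to 0.304 for Trp53. Knockout minus wild type ran from -0.0775 to 0.317 for Bbc3, -0.0802 to 0.278 for Cdkn1a and -0.307 to 0.276 for Phlda3.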
